A study of Mus musculus with 12 samples.

Results

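Complement is a system of proteins that is activated in a cascade, and 33 mouse genes of its components, receptors and regulators were followed among the 55413 genes measured. The genes were chosen by name, as the entries of the expression table whose identifiers map to these 33 symbols, and all 33 were present. The study sequenced RNA of 12 cultures from paws of BALB/c mice that had been digested with collagenase. The labels call the cells synovial fibroblasts, the connective tissue cells that line joints. Monosodium urate (MSU), which crystallizes in the joints of people with gout, had been injected as crystals into all paws. Left paws were primed by crystals on both day 0 and day 9, and right, non-primed paws had crystals on day 9 alone, so side and priming cannot be told apart. Each of the 4 groups held 3 libraries. The in vitro I-BET151 group was cells from primed paws that were kept with I-BET151 at 1 µM in culture for 24 h, and the labels do not say whether their mice had received vehicle. The in vivo I-BET151 group was cells of primed paws of mice that received 20 mg/kg I-BET151 per day by intraperitoneal injection from 1 day before the earlier crystal injection. The primed vehicle and non-primed vehicle groups were cells of the left and of the right paws of mice injected without I-BET151. I-BET151 blocks the bromodomains of BET proteins, which bind acetylated histones and promote transcription. Cells of 2 to 3 paws were pooled, grown for 5 passages and sampled at day 18. The labels do not say whether libraries came from different animals, so p-values measure the spread between these pooled cultures.

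In the classical pathway the C1 complex, made of C1q and the proteases C1r and C1s, binds antibody on a surface and cleaves C4 and C2. In the lectin pathway collectins and ficolins bind sugars and activate the MASP proteases, and in the alternative pathway C3 activates itself on surfaces with factor B, factor D and properdin. All routes cleave C3, whose fragments coat particles and signal through receptors, and C5, which starts the membrane attack complex. Much plasma complement is made by the liver, but fibroblasts and macrophages of the joint also make components, and MSU crystals are known to activate complement.

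Expression is given as rlog, a regularized log2 value, which corrects for library size but not for gene length, so levels are compared between libraries and not between genes. The table holds no read counts, so the depth of the libraries is unknown. Of the 33 genes, 27 reached a mean of 3 on the rlog scale across the 12 libraries and were tested with all 16459 genes that met this minimum. A gene was called at an adjusted p under 0.05 (limma, Benjamini-Hochberg adjustment over all 16459 genes), and differences are in log2 units ± SE. The other 6, C5ar2, Cfd, Masp2, Vtn, C6 and C7, had means under 3 and were not tested in that fit. Among the 27, C5ar1, Hc, Cfi and Fcna had a mean under 3 in non-primed vehicle cells and passed through their higher groups.

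The libraries fell into 2 sets, and only the in vivo I-BET151 group was split between them. The labels do not explain the sets. The mean rlog value of 15 pigment-cell markers (such as Tyrp1, Dct and Pmel, which make or package melanin) was 12.87 to 14.28 in 5 libraries, namely in vivo I-BET151 2 and 3 and all non-primed vehicle libraries. It was 6.11 to 7.28 in the other 7 libraries, which were all in vitro I-BET151 and primed vehicle libraries and in vivo I-BET151 1. Of the 15 markers 14 were called lower in primed than in non-primed vehicle cells. The remaining 1, Ednrb, was called higher, with values of 3.28 to 5.31 in the 5 libraries and 5.80 to 9.35 in the other 7. The mean of 10 fibroblast markers was 6.54 to 10.77 in those 5 libraries and 14.08 to 15.11 in the other 7, so the fibroblast label was met least well in the 5. The mean of 15 macrophage markers, none of them a complement gene listed here, was 3.35 to 5.86 in the 5 libraries and 6.78 to 8.58 in the other 7. By group the macrophage mean ran from 7.24 to 8.41 in in vitro I-BET151 cells, from 4.13 to 6.78 in in vivo I-BET151 cells, from 7.99 to 8.58 in primed vehicle cells and from 3.35 to 5.86 in non-primed vehicle cells. Cd163 was near 0 in all 12 libraries. The comparison of primed with non-primed vehicle cells runs wholly along the split between the sets, so priming and cell makeup cannot be told apart there, and in these bulk cultures fewer cells of a type cannot be told apart from less RNA per cell.

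**Figure D1:**
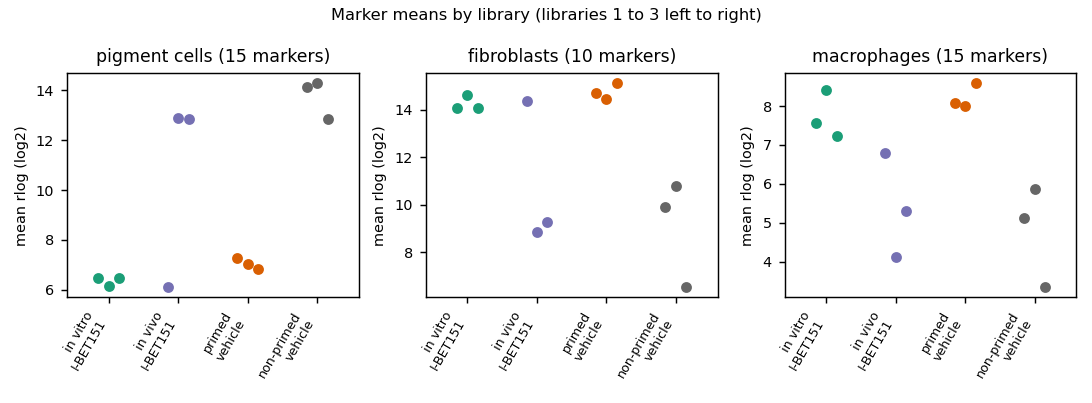
Mean rlog value (log2) of 15 pigment-cell, 10 fibroblast and 15 macrophage markers in each library, with 1 point per library in 4 groups. In vivo libraries 2 and 3 and the 3 non-primed vehicle libraries are high in pigment-cell markers (12.87 to 14.28) and low in fibroblast markers (6.54 to 10.77), and in vivo library 1 lies with the in vitro and primed vehicle libraries.

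Differences between primed and non-primed vehicle cells are called differences with priming, and those between in vivo I-BET151 and primed vehicle cells are called differences in vivo. In primed vehicle cells 20 of the 27 tested complement genes rose and 1 fell against non-primed vehicle cells, while 28.9% of all tested genes rose and 22.9% fell. The median difference was 3.42 over the 27 genes and 0.05 over all genes. Without the 4 genes that passed the minimum through their higher groups, 16 of 23 rose and 1 fell. In in vivo I-BET151 cells 13 of the 27 fell against primed vehicle cells and 0 rose, while 21.8% of all genes fell and 17.9% rose. The median difference was -2.13, against -0.05 over all genes, and 12 of 23 fell without those 4 genes. For neither comparison was the share over all genes counted with such genes left out, so the counts over 23 have no like share beside them. Under quantile normalization the complement genes split into 17 that rose and 2 that fell with priming, and 2 that rose and 13 that fell in vivo. The share of called genes that were higher, over all genes, was then 40.4% with priming, against 55.7% as fitted, and 60.8% in vivo, against 45.1% as fitted. Median-centred libraries gave 57.6% in vivo. Both comparisons share the primed vehicle libraries, so they are not independent. In in vitro I-BET151 cells 0 of the 27 were called against primed vehicle cells by limma, with 1 at an unadjusted p under 0.05, while 4.51% of all genes were called in either direction. The median difference there was -0.27, against -0.02 over all genes.

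**Figure D2:**
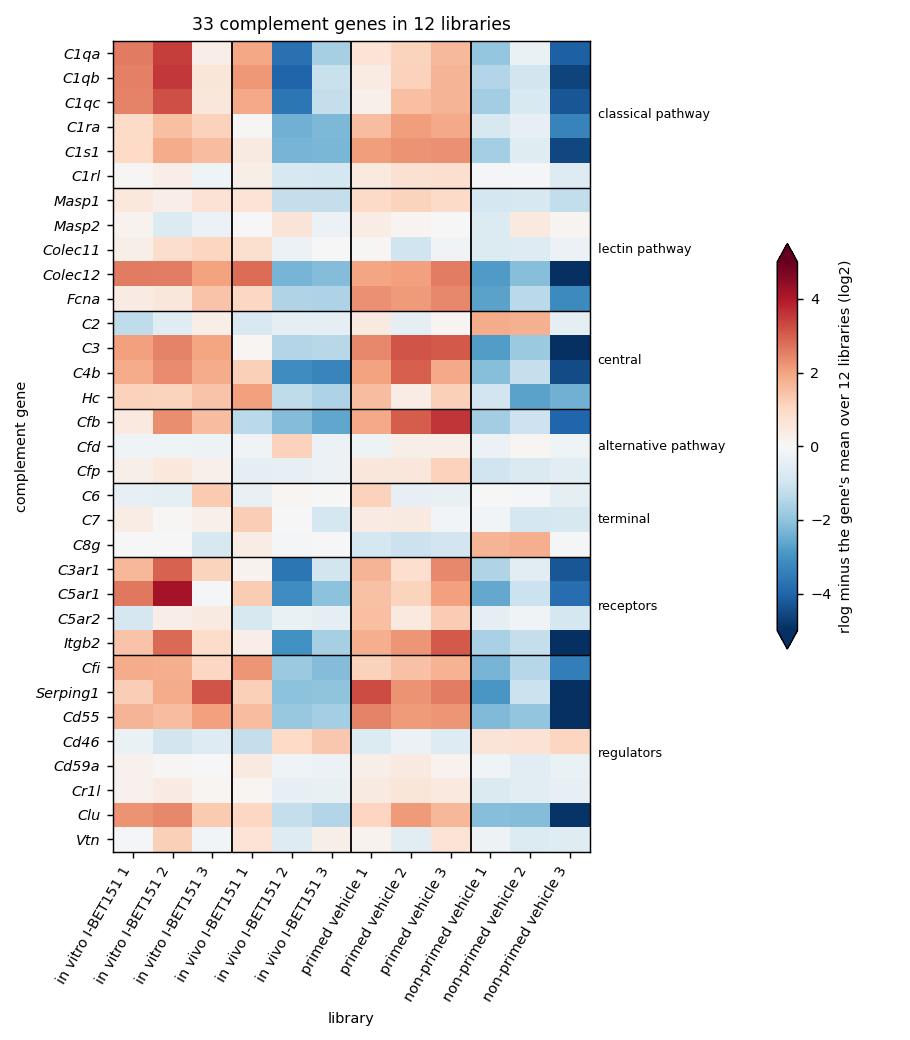
The rlog value of each of 33 complement genes in each of 12 libraries, minus the gene's mean over the 12 libraries (log2; red above the mean, blue below), with genes grouped by role. In most rows in vivo libraries 2 and 3 and the 3 non-primed vehicle libraries are blue and the other 7 libraries are red, whereas Cd46 shows the opposite.

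Of the 33 genes, 20 had lower values in each of the 5 libraries rich in pigment-cell transcripts than in any of the other 7. Cd46 alone was the other way round, and 12 genes overlapped between the sets. The 12 were C1rl, C2, C5ar2, Cfb, Cfd, Cfp, Masp2, Colec11, Vtn, C6, C7 and C8g. Of the 16459 tested genes, 24.3% were lower in each of the 5 libraries than in any of the 7 and 19.6% were higher. All 20 of the lower complement genes were among the 27 tested. They include C5ar1, Hc, Cfi and Fcna, which passed the expression minimum through their higher groups, so the count is not separate support. The 20 complement genes span every role except the alternative pathway and the terminal components. For each of these 20 genes in vivo library 1 was therefore the highest of the 3 in vivo libraries.

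In the classical pathway, C1ra, C1s1 and C1rl rose in primed vehicle cells and fell in in vivo I-BET151 cells, and the C1q genes were not called in either comparison. The 3 C1q genes (chr4:136880129-136898803, GRCm38) encode the chains of the recognition subunit and lie next to each other. C1qa had rlog values of 8.47, 9.36 and 6.23 in in vitro I-BET151 cells, 7.82, 2.15 and 4.22 in in vivo I-BET151 cells, 6.59, 6.98 and 7.50 in primed vehicle cells and 3.97, 5.56 and 1.80 in non-primed vehicle cells. In vivo library 1 was above all 3 primed vehicle libraries, and in vivo libraries 2 and 3 were below them. C1qa differed by 3.25 ± 1.39 between primed and non-primed vehicle cells (limma, adjusted p = 0.0735) and by -2.29 ± 1.39 between in vivo I-BET151 and primed vehicle cells (adjusted p = 0.202). C1qb and C1qc behaved alike, with 3.42 and 3.40 for priming and -2.08 and -2.13 in vivo. With 1 library left out, the in vivo difference ran from -3.84 to -1.0 for C1qa, from -3.65 to -0.56 for C1qb and from -3.56 to -0.81 for C1qc. All 3 were called lower without in vivo library 1 (adjusted p from 0.0167 to 0.0297). Without non-primed vehicle library 2, C1qa and C1qc were called higher with priming (adjusted p = 0.0484 and 0.0443). With only the primed and non-primed vehicle libraries in the fit, all 3 C1q genes were called, with adjusted p from 0.0239 to 0.0291. C1q is made mainly by macrophages and related cells, and the part of macrophages in these values was not tested.

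C1ra and C1s1 encode the proteases C1r and C1s, and C1rl a related protease, and the 3 genes lie together on chromosome 6 (124493113 to 124542359). C1s1 had 12.69, 13.55 and 13.25 in in vitro I-BET151 cells, 12.14, 9.40 and 9.42 in in vivo I-BET151 cells, 13.81, 13.96 and 14.01 in primed vehicle cells and 10.03, 11.12 and 7.16 in non-primed vehicle cells. Every in vivo and every in vitro library lay below every primed vehicle library. C1s1 rose by 4.49 ± 0.95 in primed vehicle cells (adjusted p = 0.00402) and fell by 3.60 ± 0.95 in in vivo I-BET151 cells (adjusted p = 0.0165). C1ra had 11.43, 11.99 and 11.62 in in vitro I-BET151 cells, 10.52, 8.07 and 8.25 in in vivo I-BET151 cells, 12.01, 12.58 and 12.38 in primed vehicle cells and 9.69, 10.06 and 7.13 in non-primed vehicle cells. It too was below every primed vehicle library in all 6 libraries treated with I-BET151, though in vitro by little (11.99 against 12.01). Neither gene was called in vitro in the fit of 12 libraries (limma, adjusted p = 0.671 for C1ra and 0.682 for C1s1). C1rl, Cr1l, Cfp, Masp1, Cd55, Fcna and, at low levels, C5ar2 had the same order. The share of all genes with it was not counted, so the order is not read as particular to complement genes. C1ra rose by 3.37 ± 0.78 with priming (adjusted p = 0.0058) and fell by 3.38 ± 0.78 in vivo (adjusted p = 0.0105). The in vivo call of C1s1 was lost without in vivo library 2 or 3 or primed vehicle library 3, with differences from -3.56 to -3.14 and adjusted p from 0.0517 to 0.0701. C1rl rose by 0.96 ± 0.30 (adjusted p = 0.023) and fell by 1.15 ± 0.30 (adjusted p = 0.0169). Its priming call was lost without non-primed vehicle library 3 or primed vehicle library 2 or 3 (0.79 to 0.93, adjusted p from 0.0635 to 0.0737), and its in vivo call without in vivo or primed vehicle library 2 or 3 (-1.11 to -0.94, adjusted p from 0.0518 to 0.0736). C1ra and C1s1 have close copies, C1rb and C1s2, and C1s1 overlaps an antisense gene, so their values are uncertain to that extent. The same holds for Hc, Fcna, Cd55, Cd46, C2 and Masp2, which overlap genes on the opposite strand, since it is not stated whether counting used strand.

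Of the central components, C3, C4b and Hc rose in primed vehicle cells, and C3 and C4b fell in in vivo I-BET151 cells. C3 (chr17:57203970-57228136) encodes the protein on which all pathways converge. C3 had 14.58, 15.03 and 14.52 in in vitro I-BET151 cells, 12.64, 11.09 and 11.14 in in vivo I-BET151 cells, 14.93, 15.70 and 15.60 in primed vehicle cells and 9.77, 10.68 and 4.84 in non-primed vehicle cells. The in vivo libraries lay between the other sets, above all non-primed vehicle libraries and below all primed vehicle ones, and non-primed library 3 was the lowest. C3 rose by 6.98 ± 1.19 with priming (adjusted p = 0.00202), the largest difference of the 27 genes, and by 5.19 without non-primed vehicle library 3. It fell by 3.79 ± 1.19 in in vivo I-BET151 cells (adjusted p = 0.0309). That call was lost when any 1 of the primed vehicle libraries or in vivo library 2 or 3 was left out, with differences from -4.03 to -3.52 and adjusted p from 0.0584 to 0.0999.

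The bases around the starts of C3, C1ra, C1s1 and Cfp are shown because these 4 genes were called lower both over all in vivo libraries and in in vivo library 1 alone and had a window in the RefSeq promoter table of build GRCm38.p6. Windows run from 250 bases before to 50 after the RefSeq start, 5′ to 3′ on the gene's strand. Capitals mark matches on either strand to 5 motifs: TTNNGNAA (C/EBP), TTCNNNGAA (STAT), GAAANNGAA (interferon response), GGANTTTCC (NF-kB) and, for the TATA box, the letters TATAAA. C3 is at chr17:57228087-57228386 on the minus strand, C1ra at chr6:124512371-124512670 on the plus strand and C1s1 at chr6:124542310-124542609 on the minus strand. Cfp is at chrX:20931506-20931805 on the minus strand.
C3: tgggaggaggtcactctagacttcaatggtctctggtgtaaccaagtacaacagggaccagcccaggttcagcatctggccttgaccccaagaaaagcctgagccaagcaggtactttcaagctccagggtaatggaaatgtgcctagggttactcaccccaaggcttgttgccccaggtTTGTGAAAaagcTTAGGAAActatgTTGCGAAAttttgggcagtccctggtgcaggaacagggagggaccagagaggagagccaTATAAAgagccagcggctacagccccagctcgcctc
C1ra: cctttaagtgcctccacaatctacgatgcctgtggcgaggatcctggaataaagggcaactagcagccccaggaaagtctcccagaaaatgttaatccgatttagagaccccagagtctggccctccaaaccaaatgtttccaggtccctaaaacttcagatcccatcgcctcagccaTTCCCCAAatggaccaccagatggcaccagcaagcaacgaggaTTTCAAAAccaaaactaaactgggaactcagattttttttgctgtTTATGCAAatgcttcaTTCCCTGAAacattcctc
C1s1: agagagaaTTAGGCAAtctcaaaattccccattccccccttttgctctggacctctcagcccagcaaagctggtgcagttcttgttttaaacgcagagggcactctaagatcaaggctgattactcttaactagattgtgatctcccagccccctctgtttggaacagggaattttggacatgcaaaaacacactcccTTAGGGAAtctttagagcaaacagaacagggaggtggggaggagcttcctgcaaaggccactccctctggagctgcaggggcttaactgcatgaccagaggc
Cfp: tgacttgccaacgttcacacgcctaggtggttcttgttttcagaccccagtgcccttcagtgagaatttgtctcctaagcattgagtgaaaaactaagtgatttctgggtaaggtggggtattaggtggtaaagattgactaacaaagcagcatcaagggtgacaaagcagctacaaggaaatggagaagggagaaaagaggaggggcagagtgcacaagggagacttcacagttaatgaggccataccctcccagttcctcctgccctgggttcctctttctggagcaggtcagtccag
Counting from the start of the window, C3 matched the C/EBP letters at bases 181 to 188, 193 to 200 and 206 to 213 and the TATA letters at 265 to 270. C1ra matched the C/EBP letters at bases 179 to 186, 222 to 229 and 267 to 274 and the STAT letters at 283 to 291, and its RefSeq start lies downstream of the GENCODE start. C1s1 matched the C/EBP letters at bases 9 to 16 and 199 to 206. None of these matches overlapped another. The C/EBP letters occurred in 40.7% of 32851 promoter windows and in 11 of the 23 complement genes with a window, and 3.6% of windows held them at 3 or more places. STAT letters occurred in 8.3% of windows and 5 of the 23, interferon response letters in 8.56% and 6 of the 23, NF-kB letters in 1.25% and 0 of the 23, and TATA letters in 13.6% and 5 of the 23. Cfp had no match to any of the 5 motifs in its window, and Cfb had no window in the table. A match describes letters only.

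C4b encodes C4, the substrate of C1s, and its close copy C4a makes its values uncertain. C4b had 9.61, 10.11 and 9.61 in in vitro I-BET151 cells, 8.93, 4.65 and 4.43 in in vivo I-BET151 cells, 9.78, 10.75 and 9.66 in primed vehicle cells and 5.61, 6.60 and 3.28 in non-primed vehicle cells. In vivo libraries 2 and 3 were within the range of non-primed vehicle cells, whereas in vivo library 1 was nearer to the primed vehicle libraries but below each of them. C4b rose by 4.90 ± 1.14 with priming (adjusted p = 0.00602) and fell by 4.06 ± 1.14 in vivo (adjusted p = 0.0209). The in vivo call was lost without in vivo library 2 or 3 (-3.38 and -3.27, adjusted p = 0.0848 and 0.0873) and without primed vehicle library 2 or 3 (-3.72 and -4.26, adjusted p = 0.0663 and 0.0519). C4a differed by 0.24 and 0.05 in the same comparisons.

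Hc encodes mouse C5. It had 4.60, 4.56 and 4.86 in in vitro I-BET151 cells, 5.51, 2.19 and 1.91 in in vivo I-BET151 cells, 5.00, 3.82 and 4.65 in primed vehicle cells and 2.51, 0.76 and 1.03 in non-primed vehicle cells. In vivo library 1 was the highest of the 12. Hc rose by 3.06 ± 0.85 with priming (adjusted p = 0.0134) and differed by -1.29 ± 0.85 in vivo (adjusted p = 0.237). C2, which is cleaved with C4, was not called, with differences of -1.01 with priming and -0.60 in vivo, and its non-primed values were 11.31, 11.22 and 8.96. Without non-primed vehicle library 3 it was called lower with priming, at -1.78 (limma, adjusted p = 0.00979). C2 and Cfb are neighbours on chromosome 17 (34856374 to 34898265). Both overlap the predicted gene Gm20547 on the same strand, so the values of C2 and Cfb are uncertain to that extent.

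Of the alternative pathway genes, Cfb and Cfp rose in primed vehicle cells and fell in in vivo I-BET151 cells. Cfb encodes factor B, the protease of the alternative C3 convertase. Cfb had 6.16, 8.02 and 7.22 in in vitro I-BET151 cells, 4.32, 3.53 and 3.07 in in vivo I-BET151 cells, 7.57, 8.72 and 9.26 in primed vehicle cells and 3.93, 4.66 and 1.72 in non-primed vehicle cells. All 3 in vivo libraries lay within the non-primed range, in vivo library 1 included, and below every primed vehicle library. Cfb rose by 5.08 ± 0.78 with priming (adjusted p = 0.00152) and fell by 4.88 ± 0.78 in vivo (adjusted p = 0.00303), the largest fall of the 27, and both calls held with any 1 library left out. Cfp encodes properdin, which stabilizes that convertase. Cfp had 8.54, 8.76 and 8.48 in in vitro I-BET151 cells, 7.78, 7.81 and 7.95 in in vivo I-BET151 cells, 8.80, 8.82 and 9.39 in primed vehicle cells and 7.26, 7.53 and 7.72 in non-primed vehicle cells. The 4 groups did not overlap, in the order non-primed, in vivo, in vitro and primed from low to high. Cfp rose by 1.50 ± 0.23 with priming (adjusted p = 0.00154) and fell by 1.16 ± 0.23 in vivo (adjusted p = 0.00663), but under quantile normalization it differed by 0.80 and -0.55 (adjusted p = 0.0587 and 0.187). Cfd, which encodes factor D, lay between -1.32 and 0.12 in all libraries.

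**Figure D3:**
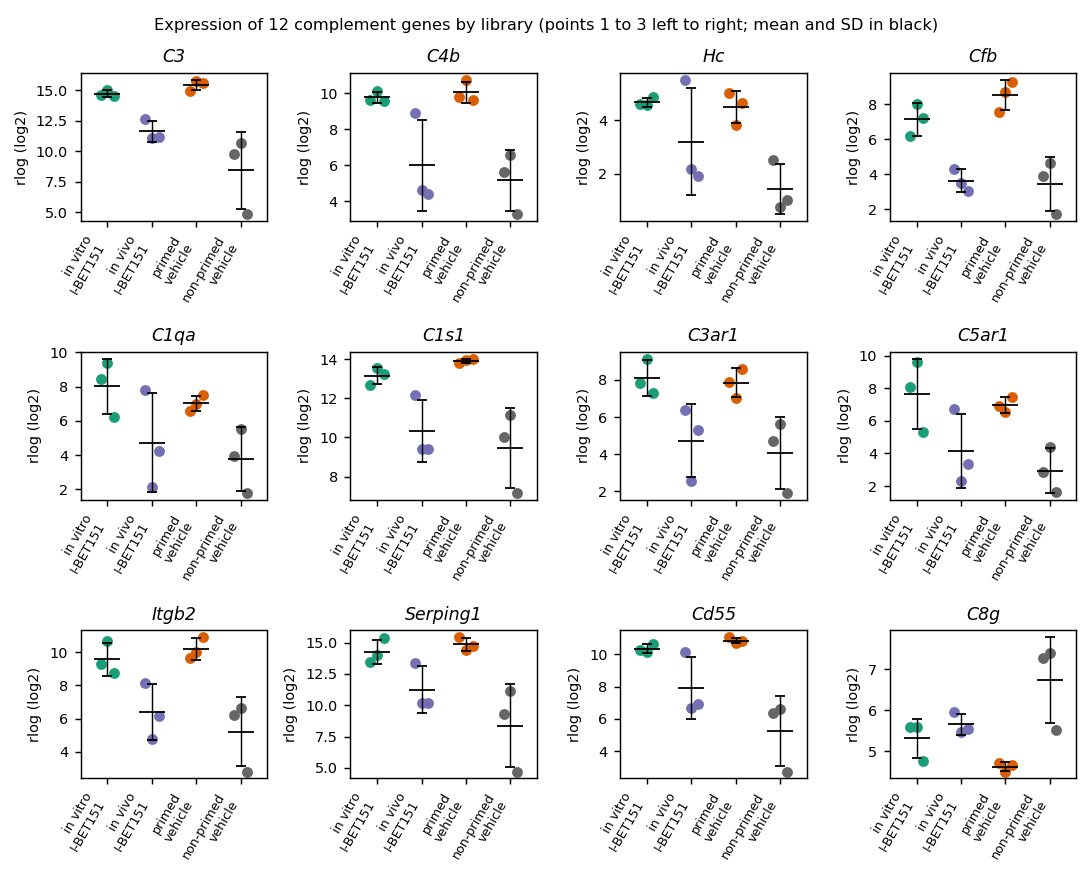
The rlog value (log2) of 12 complement genes in each library, with libraries 1 to 3 from left to right within a group and the group mean ± SD (n = 3) in black. For C3 and Cfb all 3 in vivo I-BET151 points lie below all primed vehicle points, whereas for C1qa and Hc in vivo library 1 lies above them and libraries 2 and 3 lie below.

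Of the receptors, C3ar1, C5ar1 and Itgb2 rose in primed vehicle cells, and C3ar1 and Itgb2 fell in in vivo I-BET151 cells. C3ar1 and C5ar1 encode the receptors of the fragments C3a and C5a, which attract and activate leukocytes. C3ar1 had 7.84, 9.15 and 7.31 in in vitro I-BET151 cells, 6.36, 2.56 and 5.28 in in vivo I-BET151 cells, 7.90, 7.03 and 8.59 in primed vehicle cells and 4.70, 5.62 and 1.91 in non-primed vehicle cells. All 3 in vivo libraries were below all primed vehicle libraries. C3ar1 rose by 3.76 ± 1.11 with priming (adjusted p = 0.0169) and fell by 3.11 ± 1.11 in vivo (adjusted p = 0.0469). The in vivo value was -2.02 without in vivo library 2 (adjusted p = 0.176), and the call was also lost without in vivo library 3 or any 1 primed vehicle library (adjusted p from 0.0692 to 0.133). Quantile normalization and a fit with no minimum on expression lost this call too (limma, adjusted p = 0.0594 and 0.073). The priming call was lost without non-primed vehicle library 3 or primed vehicle library 3, at 2.68 and 3.39 (adjusted p = 0.0554 and 0.0597).

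C5ar1 had 8.07, 9.59 and 5.33 in in vitro I-BET151 cells, 6.70, 2.33 and 3.37 in in vivo I-BET151 cells, 6.88, 6.53 and 7.48 in primed vehicle cells and 2.87, 4.37 and 1.62 in non-primed vehicle cells. The in vitro libraries lay both above and below all primed vehicle libraries, and the in vivo libraries spread about as widely (SD 2.16 in vitro and 2.28 in vivo). C5ar1 rose by 4.01 ± 1.27 with priming (adjusted p = 0.0228) and differed by -2.83 ± 1.27 in vivo (adjusted p = 0.0946). The priming call was lost without non-primed library 1 or 3 or primed vehicle library 1 or 3, with differences from 3.35 to 4.05 and adjusted p from 0.0528 to 0.075. C5ar2, the alternative C5a receptor beside C5ar1 on chromosome 7, had 0.08, 1.26 and 1.41 in in vitro I-BET151 cells, 0.14, 0.59 and 0.45 in in vivo I-BET151 cells, 2.43, 1.41 and 2.21 in primed vehicle cells and 0.45, 0.76 and 0.07 in non-primed vehicle cells. The primed vehicle libraries were above every in vivo and non-primed library, all at low levels. With no minimum on expression C5ar2 differed by 1.59 ± 0.41 with priming (limma, adjusted p = 0.0158) and by -1.62 ± 0.41 in vivo (adjusted p = 0.0227).

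Itgb2 encodes CD18, the shared β chain of the leukocyte integrins, among them complement receptors 3 and 4. It had 9.28, 10.66 and 8.74 in in vitro I-BET151 cells, 8.16, 4.79 and 6.18 in in vivo I-BET151 cells, 9.65, 10.03 and 10.90 in primed vehicle cells and 6.22, 6.63 and 2.81 in non-primed vehicle cells. The in vivo libraries were all below the primed vehicle libraries, and library 1 was the nearest. Itgb2 rose by 4.97 ± 1.08 with priming (adjusted p = 0.00442) and fell by 3.82 ± 1.08 in vivo (adjusted p = 0.0211). The in vivo call was lost without in vivo library 2 or 3 or primed vehicle library 2 or 3, with differences from -3.90 to -3.03 and adjusted p from 0.0527 to 0.0863. CD18 and the C3a and C5a receptors are typical of leukocytes. Of 12 macrophage markers tested, 11 rose with priming and 9 fell in vivo, with medians of 4.07 and -3.15, and their part in the receptor values was not tested. Of 10 neutrophil markers 8 were under the expression minimum, and the 2 tested, S100a8 and Camp, rose with priming and fell in vivo. The mean of the 10 ran from 1.24 to 2.33 in in vitro I-BET151 cells, from 1.17 to 1.36 in in vivo I-BET151 cells, from 2.74 to 3.27 in primed vehicle cells and from 0.49 to 1.38 in non-primed vehicle cells.

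Of the lectin pathway genes, Masp1, Colec12 and Fcna rose in primed vehicle cells, and Masp1 and Fcna fell in in vivo I-BET151 cells. Colec12 encodes a membrane collectin that binds sugars and lipids. Colec12 had 14.93, 14.88 and 14.35 in in vitro I-BET151 cells, 15.11, 9.99 and 10.17 in in vivo I-BET151 cells, 14.29, 14.39 and 14.90 in primed vehicle cells and 9.48, 10.19 and 5.19 in non-primed vehicle cells. The values followed the split between the library sets, and in vivo library 1 was the highest of all 12. Colec12 rose by 6.24 ± 1.44 with priming (adjusted p = 0.0058) and differed by -2.77 ± 1.44 in vivo (adjusted p = 0.142). Masp1, which encodes MASP-1 and MASP-3, rose by 1.97 ± 0.41 with priming (adjusted p = 0.00392) and fell by 1.57 ± 0.41 in vivo (adjusted p = 0.0165).

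Fcna encodes ficolin A, which binds sugars and which macrophages make in mice. Fcna had 4.97, 5.14 and 5.99 in in vitro I-BET151 cells, 5.59, 3.04 and 3.01 in in vivo I-BET151 cells, 6.83, 6.67 and 6.97 in primed vehicle cells and 1.86, 3.21 and 1.37 in non-primed vehicle cells. All I-BET151 libraries, in vitro and in vivo, were below all primed vehicle libraries. Fcna rose by 4.67 ± 0.70 with priming (adjusted p = 0.00137) and fell by 2.94 ± 0.70 in vivo (adjusted p = 0.0117). Without in vivo library 2 or 3 the in vivo call was lost for Fcna (-2.52 and -2.50, adjusted p = 0.0531 and 0.0538) and for Masp1 (-1.26 and -1.25, adjusted p = 0.071 and 0.0717). Masp1 also lost it without primed vehicle library 2, at -1.52 (adjusted p = 0.05003). Colec11, which encodes collectin-11, was not called, at 0.17 with priming and 0.54 in vivo, and Masp2 lay between 1.73 and 3.07. Under quantile normalization Colec11 was called higher in vivo, at 1.16 (limma, adjusted p = 0.0415).

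Of the regulators, Serping1, Cd55, Cfi, Clu, Cr1l and Cd59a rose in primed vehicle cells, and Cd55 and Cr1l fell in in vivo I-BET151 cells. Serping1 encodes the C1 inhibitor, which inactivates C1r, C1s and the MASPs. It had 13.44, 14.04 and 15.34 in in vitro I-BET151 cells, 13.40, 10.14 and 10.19 in in vivo I-BET151 cells, 15.44, 14.44 and 14.77 in primed vehicle cells and 9.27, 11.12 and 4.70 in non-primed vehicle cells. Every in vivo library was below every primed vehicle library, and non-primed library 3 was the lowest of all 12. Serping1 rose by 6.52 ± 1.43 with priming (adjusted p = 0.00461) and differed by -3.64 ± 1.43 in vivo (adjusted p = 0.0641), which passed at 0.0415 with only those 6 libraries in the fit and at 0.0398 under quantile normalization. The same fit of 6 libraries lost the in vivo calls of C1rl, C4b, C3ar1, Cd55 and Masp1 (limma, adjusted p from 0.0588 to 0.0758).

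Cd55 encodes decay-accelerating factor, which takes C3 convertases apart on the cell's own surface. Cd55 rose by 5.60 ± 1.06 with priming (adjusted p = 0.00281) and fell by 2.93 ± 1.06 in vivo. The in vivo value was at the threshold (adjusted p = 0.0499) and was lost without any 1 primed vehicle library or in vivo library 2 or 3, with adjusted p from 0.0985 to 0.172. This call was also lost with no minimum, a minimum of 5, median-centred libraries and only the 6 libraries compared. There the adjusted p ran from 0.0503 to 0.0778 (limma). Cr1l, the rodent regulator Crry, rose by 1.07 ± 0.16 (adjusted p = 0.00132) and fell by 0.75 ± 0.16 (adjusted p = 0.00779), and both calls held with any 1 library left out. Cfi encodes the protease that inactivates C3b and C4b, Clu encodes clusterin, an inhibitor of the terminal complex, and Cd59a encodes a membrane inhibitor of that complex. They rose by 3.85 ± 1.00, 4.68 ± 0.81 and 0.67 ± 0.21 with priming (adjusted p = 0.00967, 0.00214 and 0.0216). In vivo they differed by -2.05, -2.13 and -0.33, with adjusted p of 0.119, 0.0585 and 0.213. Clu was called lower in vivo under quantile normalization, at -1.95 (limma, adjusted p = 0.0308). Cd59a has a close copy, Cd59b, which rose by 4.30 with priming, so its values are uncertain. The priming call of Cd59a was lost without non-primed library 2 or primed vehicle library 1 or 2, with adjusted p from 0.0515 to 0.0749, and also with median-centred libraries (0.0503) and quantile normalization (0.0679). Vtn, which encodes the terminal inhibitor vitronectin, lay between -0.29 and 1.57.

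Cd46 encodes another membrane regulator, which in mice is known mainly from testis and sperm, and it lies beside Cr1l on chromosome 1. Cd46 had 6.40, 5.82 and 6.09 in in vitro I-BET151 cells, 5.57, 7.73 and 8.07 in in vivo I-BET151 cells, 6.06, 6.44 and 6.09 in primed vehicle cells and 7.38, 7.45 and 7.83 in non-primed vehicle cells. The 5 libraries rich in pigment-cell transcripts were the 5 highest, so neighbouring genes had opposite orders. Cd46 differed by -1.36 ± 0.55 with priming (adjusted p = 0.0618) and by 0.93 ± 0.55 in vivo (adjusted p = 0.193). It was called lower with priming at 0.0109 with only those 6 libraries in the fit and at 0.0149 under quantile normalization.

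C8g, which encodes the γ chain of C8, was the terminal component that could be tested and the 1 gene that fell with priming. C8g had 5.58, 5.59 and 4.77 in in vitro I-BET151 cells, 5.95, 5.47 and 5.55 in in vivo I-BET151 cells, 4.71, 4.51 and 4.66 in primed vehicle cells and 7.27, 7.40 and 5.53 in non-primed vehicle cells. The primed vehicle libraries were the 3 lowest of the 12. C8g fell by 2.11 ± 0.48 with priming (adjusted p = 0.0054) and differed by 1.03 ± 0.48 in vivo (adjusted p = 0.105). It was called higher in vivo at 1.21 with median-centred libraries (adjusted p = 0.0494), at 1.77 with quantile normalization (adjusted p = 0.00599) and at 1.03 with only those 6 libraries in the fit (adjusted p = 0.048). C6 and C7, other parts of the membrane attack complex, lay between -0.76 and 2.12 in all libraries.

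**Figure D4:**
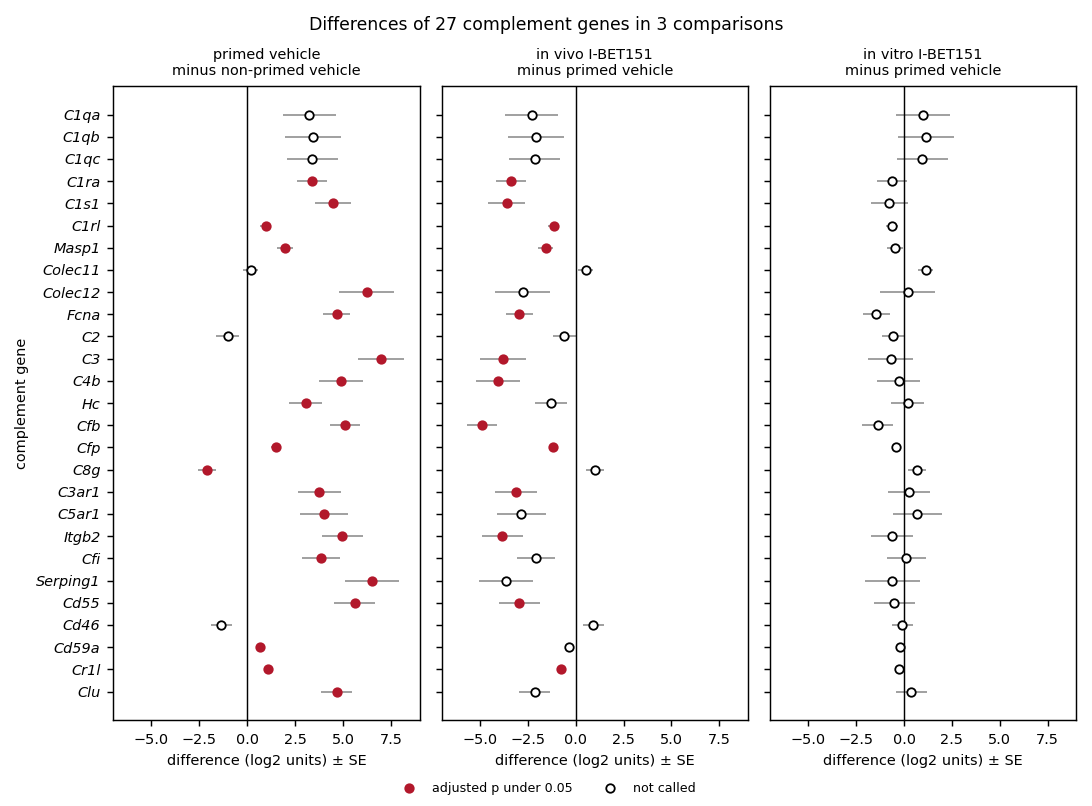
Differences (log2 units) ± SE of 27 complement genes in 3 comparisons, from a limma fit of 12 libraries with 3 per group, with filled points for an adjusted p under 0.05. With priming 20 genes are filled to the right of 0 and C8g to the left, in vivo 13 genes are filled to the left, and in vitro none is filled.

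In vivo library 1 gives the comparison of in vivo I-BET151 with primed vehicle cells without the 2 in vivo libraries rich in pigment-cell transcripts. It was fitted with the 7 libraries poor in those transcripts, where the lone in vivo library is assumed to vary like the other groups. In it 5 of the 27 complement genes fell and 0 rose, while 11.8% of all genes fell. The 5 were Cfb (-4.20 ± 0.82, limma adjusted p = 0.017), C3 (-2.77 ± 0.33, adjusted p = 0.00696), C1ra (-1.80 ± 0.27, adjusted p = 0.00973), C1s1 (-1.78 ± 0.29, adjusted p = 0.0111) and Cfp (-1.23 ± 0.29, adjusted p = 0.0292). The other 8 genes called over 3 libraries were not called, with Itgb2 at -2.04, C3ar1 at -1.48, Fcna at -1.23, C4b at -1.14, Cd55 at -0.71, Cr1l at -0.41, C1rl at -0.40 and Masp1 at -0.32. The C1q genes were at 0.74 to 1.06, Hc at 1.02, Cfi at 0.76 and Colec12 at 0.58, all above primed vehicle cells and none called. In this library the mean of the fibroblast markers was 14.36. The mean of the macrophage markers was 6.78, which was below that of every in vitro and primed vehicle library. This held for the mean and not for every single marker, with Lyz2, Mertk and Mrc1 among the exceptions. The part of macrophages in these values was not tested.

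With in vivo library 1 left out instead, 24 of the 27 genes were called, of which 23 were lower and Cd46 was higher in vivo, while 33.5% of all genes were lower and 27% were higher. C4b was then at -5.52, Colec12 at -4.44, Hc at -2.44 and C1qa at -3.84. The in vivo difference of Colec12 thus ran from -4.44 without library 1 to 0.58 with library 1 alone, whereas that of Cfb ran from -5.22 to -4.20 and that of Cfp from -1.12 to -1.23. For Cfb and Cfp the value was of like size in both library sets. The in vivo libraries also lay close together for C2 (8.70, 8.99 and 9.00) and C8g (5.95, 5.47 and 5.55), so this was not particular to Cfb and Cfp.

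**Figure D5:**
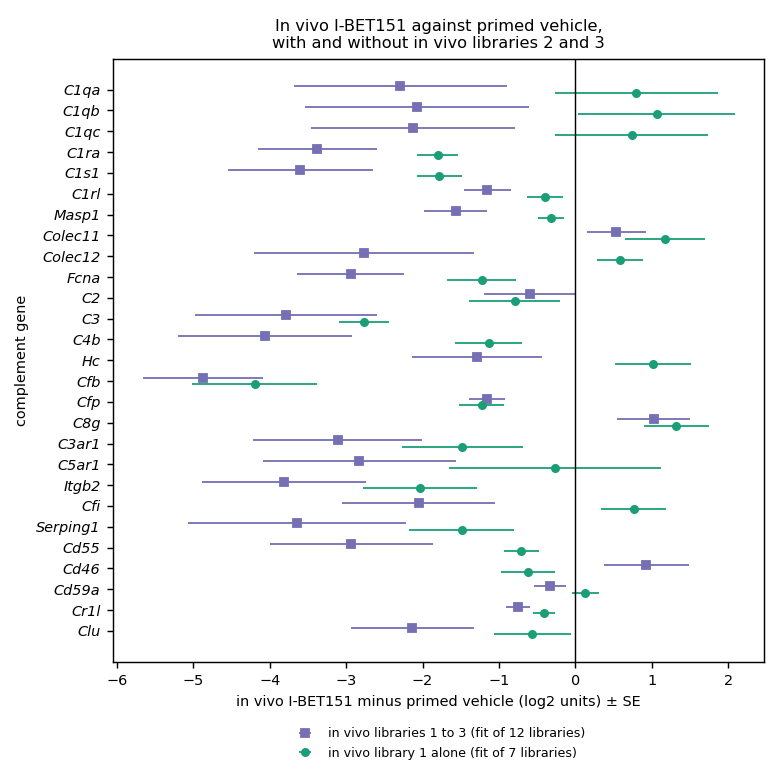
Differences (log2 units) ± SE of 27 complement genes between in vivo I-BET151 and primed vehicle cells, over 3 in vivo libraries in the fit of 12 libraries (squares) and for in vivo library 1 alone in the fit of 7 (circles). The 2 marks lie close together for Cfb, Cfp, C2 and Cr1l, among others, and on opposite sides of 0 for C1qa, C1qb, C1qc, Hc, Cfi, Colec12, Cd46 and Cd59a.

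The in vitro I-BET151 and primed vehicle libraries were all poor in pigment-cell transcripts, and the fit of 12 libraries takes its estimate of the spread in part from libraries outside this comparison. With only those 6 libraries in the fit 5 of the 27 genes fell in in vitro I-BET151 cells and 0 rose, while 16.9% of all genes fell. They were Fcna (-1.46 ± 0.32, limma adjusted p = 0.0157), Masp1 (-0.46 ± 0.12, adjusted p = 0.0279), C1rl (-0.62 ± 0.17, adjusted p = 0.0316), C1s1 (-0.76 ± 0.21, adjusted p = 0.0327) and C1ra (-0.64 ± 0.19, adjusted p = 0.0433). The 5 are a ficolin and 4 genes of C1r, C1s and MASP type proteases, and their share is close to that of all genes. Masp1 had 14.55, 14.37 and 14.75 in in vitro I-BET151 cells and 14.98, 15.11 and 14.96 in primed vehicle cells, so the groups did not overlap. Cd55 (-0.50, adjusted p = 0.0546), C3 (-0.70, adjusted p = 0.0622) and Cfb (-1.38 ± 0.58, adjusted p = 0.113) were lower without a call, and C4b (-0.29, adjusted p = 0.514) was not called. Colec11 had 4.59, 5.14 and 5.38 in in vitro I-BET151 cells and 4.33, 3.30 and 4.09 in primed vehicle cells. It was higher in every in vitro library than in any primed vehicle library, at 1.13 ± 0.37 without a call (adjusted p = 0.0567). The C1q genes were at 0.95 to 1.13 and C5ar1 at 0.70, none called.

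Between in vitro and in vivo I-BET151 cells 0 of the 27 genes were called by limma, while 0% of all genes were called, and 15 of the 27 had an unadjusted p under 0.05. The differences were positive for 25 genes with a median of 2.52, and the lowest adjusted p was 0.122. C3 differed by 3.09 ± 1.19 and Cfb by 3.50 ± 0.78, with groups that did not overlap. The groups did not overlap for C1ra, C1s1, C4b, C3ar1, Cfp, Serping1, Clu and Itgb2 either, and the share of all genes like this was not counted. Without in vivo library 1, 22 of the 27 genes were higher in vitro and Cd46 was lower, while 27.2% of all genes were higher. With in vivo library 1 as the only in vivo library in the fit of 7 libraries, 0 were called, while 0% of all genes were called, with 5 genes at an unadjusted p under 0.05. The median difference was then 0.21, with Cfb at 2.81 ± 0.82 and C3 at 2.07 ± 0.33 (adjusted p = 0.829). Dose and exposure time differ between the treatments and are not on 1 scale.

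In vivo I-BET151 cells of primed paws and vehicle cells of non-primed paws did not differ in a called complement gene by limma, while 0% of all genes were called, and 7 of the 27 had an unadjusted p under 0.05. The median difference was 0.88, with Colec12 at 3.47 ± 1.44, C3 at 3.20 ± 1.19 and Serping1 at 2.88 ± 1.43 (adjusted p = 0.228, 0.222 and 0.268). All 3 in vivo libraries were above all non-primed libraries for C3, Cd55, Clu and Cfp. None of these genes was called, and the share of all genes whose groups separate in this way was not counted. Without non-primed vehicle library 3, C2 and C8g (2 of the 27) were called lower in vivo, while 9.08% of all genes were called lower. With only the 5 libraries rich in pigment-cell transcripts, in vivo 2 and 3 and the 3 non-primed vehicle libraries, 0 of the 27 genes were called and 0 had an unadjusted p under 0.05, while 0% of all genes were called. There the median difference was 0.10 and C3 was at 2.69 ± 1.78 (adjusted p = 0.591).

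A list of 27 other complement genes held 10 that could be tested. With priming 8 of the 10 rose and 0 fell, with a median of 3.62, while 28.9% of all tested genes rose. Itgam and Itgax encode the α chains that pair with CD18 in complement receptors 3 and 4, and they rose by 5.07 ± 0.95 and 4.15 ± 0.79. Cd93, Cd59b, Csmd1, Susd4 and C1s2 rose by 1.64 to 4.65. In vivo 6 of the 10 fell and 0 rose, with a median of -2.22, while 21.8% of all tested genes fell. Cd59b and Susd4 were under 3 in every non-primed vehicle library, Itgam and Itgax in libraries 1 and 3 and C1s2 in libraries 1 and 2. Such genes pass the expression minimum through their higher groups, which favours a rise with priming, so the counts of this list are not separate support. Cd93, a surface glycoprotein of myeloid and endothelial cells, fell by 5.23 ± 1.01 and Itgam by 4.79 ± 0.95. In vitro 0 of the 10 were called, while 4.51% of all tested genes were. The mean of 5 endothelial markers ran from 3.83 to 4.13 in in vitro I-BET151 cells, from 2.33 to 4.42 in in vivo I-BET151 cells, from 4.21 to 4.82 in primed vehicle cells and from 1.79 to 2.37 in non-primed vehicle cells, and their part in the values of Cd93 was not tested.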

How the data were processed

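The authors deposited log2 expression values on the regularized log (rlog) scale, as the table's name and values show, for 55413 Ensembl genes in 12 libraries. The lowest was -2.24 and the highest 20.6, and 19136 genes were at 0 throughout. Per the labels' protocols, libraries came from 1 µg of RNA with a stranded kit that selects polyadenylated RNA. The submitters' processing notes name build GRCm38 and list the tools STAR 2.6.1c, cutadapt 1.18, Subread 1.6.1 with featureCounts, and DESeq2 1.24.0. No source used here states the annotation release, whether counting used strand, how the tools were set or whether rlog was blind to the groups. The rlog shrinks differences of weakly expressed genes, and depth and counting error are unknown.

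Groups came from the titles. The 16459 genes whose rlog averaged 3 or more were fitted over all 12 libraries with 1 mean per group (limma 3.58.1, R 4.3.3, lmFit, then eBayes with a variance trend), with two-sided p-values and Benjamini-Hochberg adjustment. An exact permutation test of 3 against 3 libraries was not used. The procedure was tested on simulated data.

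The members and gene lists were chosen with earlier results of these data known. Per-library values were given for the 3 largest called differences of each comparison and for C3, C4b, Cfb, Serping1, C3ar1, C5ar1, C5ar2, Hc, C1qa and Itgb2. C1ra, C1s1, Cfp, Cd46, C8g, Fcna, Masp1 and Colec11 were added after their values were seen, as was the count of windows with 3 or more matches. The values of 1 gene of the list of other complement genes are not reported here. Coordinates are from GENCODE M21. Alternatives were no minimum, a minimum of 5, median-centred libraries, quantile normalization, only the libraries compared, a replicate block, each library left out, and fits within the library sets rich or poor in pigment-cell transcripts.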

Additional observations from a re-analysis of the deposited data

How the results depend on the processing

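No complement gene changed sign between the fit of 12 libraries and an alternative where either called it. Between alternatives some did: in vivo, Colec12, Hc, Cfi and the 3 C1q genes were called lower without in vivo library 1 and were above 0, uncalled, with the 7 libraries poor in pigment-cell transcripts, and Cd46 and Cd59a also changed sign. With priming, 18 to 25 complement genes were called under every alternative (18 to 22 with 1 library left out), against 21. No fit within a library set could be made there. All genes together gave 8528 calls with priming, 9538 under quantile normalization and 8051 with only the 6 libraries compared. They gave 10013 of 36277 with no minimum and 7257 of 13687 with a minimum of 5. With 1 library left out, 40.7% to 48.9% of all genes were called. In vivo against primed vehicle, 10 to 15 were called under the other settings, against 13, but 5 with only the 7 libraries poor in pigment-cell transcripts and 4 to 24 with 1 library left out (24 without in vivo library 1, 4 without in vivo library 2 or 3, 6 without primed vehicle library 2 or 3). In vitro against primed vehicle, 0 were called, except for 5 with only the 6 libraries compared and 5 with the 7 libraries poor in pigment-cell transcripts. Between in vitro and in vivo cells, 0 to 23 were called with 1 library left out (23 without in vivo library 1, where 49.1% of all genes were called). Between in vivo and non-primed vehicle cells, 0 to 2 were called with 1 library left out (2 without non-primed vehicle library 3, where 17.1% of all genes were called). Over all genes, in vitro against primed vehicle gave 743 calls, 1155 under quantile normalization, 1180 with no minimum, 470 with a minimum of 5, 4983 with only the 6 libraries compared, 4989 with the 7 libraries and 12 to 367 with 1 library left out. In vivo against primed vehicle gave 6531, 3950 with only the 6 libraries compared, 3365 with the 7 libraries and 2435 to 9962 with 1 library left out.

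With a replicate block, 21, 13, 0, 0 and 0 complement genes were called in the 5 comparisons, as without it, with C3ar1 lost and Clu gained in vivo (adjusted p = 0.0671 and 0.041, limma), and 173 genes in all were called in vitro. Correlations between the deviations of same-numbered libraries ran from -0.43 to 0.37. With 3 libraries per group they cannot decide whether libraries were paired, and the numbers were not taken to pair them. Quantile normalization moved the median difference of all genes to -0.24 with priming and to 0.19 in vivo, and median-centring moved it to 0.13 in vivo. The table keeps no depth, so no limit from counting error can be given.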
